A study of Homo sapiens with 8 samples.

Results

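The comparison described here asked where overexpression of the long non-coding RNA HOTAIR moved gene expression differently in 2 related human breast epithelial lines. It used 8 RNA-seq libraries of 8 in the series, 2 in each of 4 groups, and 13771 genes of 13771 in the expression table. MCF10A is an immortalized, non-tumorigenic breast epithelial line. DCIS.COM was derived from the MCF10 series and models ductal carcinoma in situ. Each line was stably transduced with pCDH-HOTAIR or with the pCDH-empty vector and selected with puromycin, so all 4 groups carry a vector and went through selection. MCF10A was grown in horse serum with epidermal growth factor, hydrocortisone, insulin and cholera toxin, whereas DCIS.COM received horse serum alone, so line and medium cannot be told apart. The sources used here do not say whether the transduced cells were clones or pools, or whether the 2 libraries of a group came from separate cultures. The p-values therefore measure the spread between these libraries, which may be technical.

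For every gene, the HOTAIR effect in a line was the difference in log2 CPM, read counts scaled to library size, between the HOTAIR and empty vector libraries. The interaction was the DCIS.COM effect minus the MCF10A effect. A positive interaction means that the HOTAIR effect was higher in DCIS.COM, and a negative value means that it was lower there. Genes were called at a Benjamini-Hochberg adjusted p under 0.05, and intervals are 95% confidence intervals of the fitted log2 differences.

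HOTAIR is transcribed from the HOXC cluster and is known for contacts with PRC2, the complex that methylates histone H3 at lysine 27, and with the histone demethylase LSD1. Both complexes are linked to gene silencing, and the genes they bind differ between cell types. Type I interferon signalling, which comes up below, runs from interferon receptors through a complex that holds STAT2 and IRF9 to a set of antiviral genes that share a promoter element. NRF2 is a transcription factor that drives genes of glutathione, thioredoxin and NADPH metabolism.

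The libraries held between 19306864 and 34884841 reads in the listed genes. All 8 breast epithelial markers checked were present in the table, against 1 of 7 fibroblast, 1 of 5 endothelial and 2 of 7 leukocyte markers. The DCIS.COM pCDH-empty libraries stood apart from the rest. Their median absolute log2 difference across genes was 0.212, against 0.0646 to 0.0845 in the other groups. Empty vector replicate 1 had 18.9% of its reads in RN7SL1 and RN7SL2, the RNA of the signal recognition particle, against 11.1% to 14.95% in the other 7 libraries. The difference between the 2 libraries also followed GC content across genes, with a Spearman correlation of 0.54 over 13267 genes with a known sequence, which share both libraries. Across the same genes, the interaction correlated with GC content at -0.41 with all libraries, at -0.14 without DCIS.COM pCDH-empty replicate 1 and at -0.50 without replicate 2. The MCF10A effect, which uses neither library, correlated with GC content at 0.22. Values without replicate 1, and after a correction for GC content, are therefore given for the gene groups below, and those without replicate 2 where they differ much. Without replicate 2 the counts of all genes at an unadjusted p under 0.05 were themselves 3203 higher and 2731 lower. After GC correction the counts of all genes at that threshold were 706 higher and 954 lower. With replicate 1 left out, the counts of all genes also rose above those with all libraries, in both directions. Counts of list members without replicate 1 or replicate 2 are therefore not comparable with the shares over all genes given with all libraries. A larger count there is no added support. The part of GC content in the single differences was not tested.

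The HOTAIR transcript itself (Entrez 100124700, chr12:54356092-54368740 in GRCh37, minus strand) was measured first. In MCF10A it read 0.60 and 0.66 log2 CPM with empty vector and 7.90 and 7.92 with pCDH-HOTAIR. In DCIS.COM it read 2.01 and 2.40 with empty vector and 7.66 and 7.57 with pCDH-HOTAIR. The transduced levels of the lines were thus close, and the empty vector level was higher in DCIS.COM. The increase was 7.28 on the log2 scale (interval 6.99 to 7.57) in MCF10A and 5.41 (5.12 to 5.69) in DCIS.COM. The interaction of -1.87 (-2.28 to -1.47) had an adjusted p of 0.0208. This call was lost with limma-voom on recovered reads (-1.90, adjusted p = 0.0507) and after thinning to the smallest library (-1.74, adjusted p = 0.0774). HOTAIR overlaps HOXC11 on the opposite strand, and the sources used here do not state whether reads were counted by strand.

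Besides HOTAIR, 5 genes were called in the interaction, all with a higher effect in DCIS.COM. Together these are 6 of 13771 genes, or 0.0436%, with 5 higher (0.0363%) and 1 lower (0.00726%). They were TRIM22, an interferon-inducible antiviral protein; GLUL, which makes glutamine from glutamate and ammonia; TCN1, a secreted vitamin B12 carrier; COL17A1, the transmembrane collagen of hemidesmosomes; and SAA2, an acute-phase protein. GLUL and TCN1 differed in opposite directions in the lines, with an unadjusted p under 0.05 in both. TRIM22, COL17A1 and SAA2 reached an unadjusted p under 0.05 in DCIS.COM alone. Within DCIS.COM all 5 also passed the adjusted threshold (limma, adjusted p from 0.00240 to 0.0271), whereas within MCF10A limma gave GLUL an adjusted p of 0.155 and TCN1 of 0.471.

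TRIM22 (chr11:5710840-5758319, GRCh37, plus strand) read 6.44 and 6.44 log2 CPM in MCF10A with empty vector and 6.32 and 6.26 with HOTAIR. The DCIS.COM libraries read 1.52 and 1.65 with empty vector and 2.79 and 2.82 with HOTAIR. The groups did not overlap in either line. The MCF10A difference was -0.15 (interval -0.34 to 0.04), and in DCIS.COM TRIM22 rose by 1.22 (1.03 to 1.41). The interaction was 1.37 (1.10 to 1.65, adjusted p = 0.0208), a 2.59-fold difference between the effects. After correction for GC content it was 1.08 and no longer called (adjusted p = 0.0596). Its neighbour TRIM5, looked up after the values were seen, overlaps it on the opposite strand and had an interaction of 0.46 (0.20 to 0.72, adjusted p = 0.307).

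GLUL (chr1:182347233-182361341, minus strand) read 9.10 and 9.06 log2 CPM in MCF10A with empty vector and 8.74 and 8.58 with HOTAIR, a difference of -0.42 (-0.58 to -0.26). Its DCIS.COM levels were 6.83 and 6.79 with empty vector and 7.43 and 7.43 with HOTAIR, a difference of 0.62 (0.46 to 0.78). With HOTAIR the 2 lines thus lay closer together in GLUL, and the libraries of each line separated by vector. The interaction was 1.04 (0.81 to 1.27, adjusted p = 0.0208).

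TCN1 (chr11:59620273-59633962, minus strand) read 6.51 and 6.42 log2 CPM in MCF10A with empty vector and 6.22 and 6.26 with HOTAIR. In DCIS.COM the values were 7.31 and 7.44 with empty vector and 8.16 and 8.14 with HOTAIR. Unlike the other genes called higher, TCN1 was more abundant in DCIS.COM to begin with, and the gap was wider with HOTAIR. Its differences were -0.22 (-0.38 to -0.07) and 0.77 (0.62 to 0.93), with an interaction of 0.997 (0.78 to 1.22, adjusted p = 0.0208).

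COL17A1 (chr10:105791044-105845638, minus strand) read 10.90 and 10.98 log2 CPM in MCF10A with empty vector and 10.95 and 10.99 with HOTAIR, which overlap. In DCIS.COM it read 6.05 and 5.98 with empty vector and 6.98 and 6.94 with HOTAIR. The MCF10A difference was 0.03 (-0.12 to 0.17) and the DCIS.COM difference was 0.94 (0.80 to 1.09). The interaction was 0.92 (0.71 to 1.12, adjusted p = 0.0208).

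SAA2 (chr11:18260770-18270215, minus strand) read 6.41 and 6.43 log2 CPM in MCF10A with empty vector and 6.49 and 6.47 with HOTAIR. The DCIS.COM libraries read -0.09 and 0.06 with empty vector and 1.28 and 1.30 with HOTAIR, from at least 26 reads in a library. The interaction was 1.24 (0.93 to 1.55, adjusted p = 0.0385). SAA2 has a close copy, SAA1, between which counting may have split reads. SAA1, looked up after the values were seen, had an interaction of 0.69 (0.03 to 1.36, adjusted p = 0.464), with DCIS.COM empty vector libraries at 0.38 and 1.11.

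**Figure D1:**
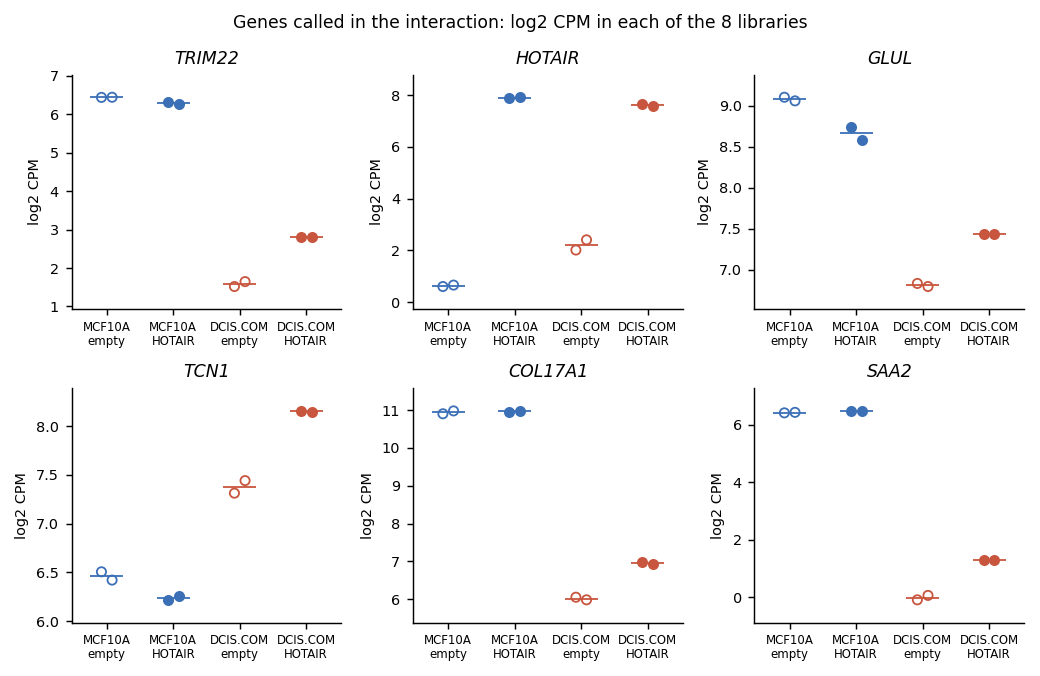
Expression of the 6 genes called in the interaction. Each panel gives log2 CPM on the vertical axis for the 8 libraries (open circles, empty vector; filled circles, pCDH-HOTAIR; blue, MCF10A; red, DCIS.COM; lines, group means); TRIM22, COL17A1 and SAA2 differ by vector mainly in DCIS.COM, and GLUL and TCN1 differ in opposite directions.

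The calls depended on the libraries in the fit. Without any 1 of the MCF10A libraries or of the DCIS.COM pCDH-HOTAIR libraries, limma called 0 genes, with 735 to 1004 genes at an unadjusted p under 0.05. Without DCIS.COM pCDH-empty replicate 1 it called 89 genes, and without replicate 2 it called 4414, in both cases including all 6 called with every library. Each of these fits holds 7 libraries, and the last 2 leave out the difference between the empty vector libraries that stood apart. The sizes of the interactions moved little: over the 8 fits, TRIM22 ranged from 1.31 to 1.44, GLUL from 0.96 to 1.12, TCN1 from 0.93 to 1.06, COL17A1 from 0.88 to 0.95, SAA2 from 1.17 to 1.32 and HOTAIR from -2.07 to -1.68. Leaving out 1 of 2 libraries moves an interaction only as the replicates of that group lie apart. These genes were called partly because their replicates lay close. The narrow ranges, and the place of the 6 in the larger sets of calls, therefore add no separate support.

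TRIM22, COL17A1 and SAA2 were far more abundant in MCF10A, so the size of their rise was set beside the MCF10A level. In DCIS.COM the mean level of COL17A1 went from 64.8 to 125 CPM, TRIM22 from 2.93 to 6.92 CPM and SAA2 from 0.917 to 2.37 CPM. These increments were 3.05%, 4.60% and 1.71% of the MCF10A empty vector level. Over the 54 genes at 50 CPM or more in MCF10A and at least 5 log2 units above DCIS.COM, the increment ranged from -0.610% to 1.74%, with a median of 0.0927%. SAA2 is among these 54, while TRIM22 and COL17A1 lie just under the limit of 5, at 4.84 and 4.92. KRT6A, a keratin at 5748 CPM in MCF10A, went from 46.4 to 50.5 CPM, an increment of 0.0714%, and FN1, fibronectin, from 52.5 to 40.1 CPM. KRT6A and FN1 were picked after their values were seen. An increment in percent of the MCF10A level depends on the gap: the same fold rise gives a larger percent where the gap is smaller. TRIM22 and COL17A1, with smaller gaps, are therefore not directly comparable with the 54. The increments were unequal between genes, and their source was not tested.

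At an unadjusted p under 0.05, 1452 genes differed between the lines. Of these, 717 had a higher effect in DCIS.COM (5.21% of genes) and 735 a lower one (5.34%). DCIS.COM alone had an unadjusted p under 0.05 for 800 of the 1452, and MCF10A alone for 329. A further 7 were under 0.05 in both lines with the same sign, 72 with opposite signs, and 244 in neither. The fit holds 1 spread per gene for all 4 groups, while the DCIS.COM pCDH-empty libraries lay further apart than the others. A shared spread then tends to make p-values too small within DCIS.COM and too large within MCF10A. The 800 and 329 therefore do not measure which line responded more. Over the whole table, whatever the interaction p, 208 genes were under 0.05 in both lines, 136 of them with the same sign and 72 with opposite signs. Across the 13770 genes other than HOTAIR, the effects in the 2 lines had a Pearson correlation of 0.016 and a Spearman correlation of -0.013. The Pearson value was 0.079 without DCIS.COM pCDH-empty replicate 1 and -0.022 without replicate 2. Genes are not independent replicates here.

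**Figure D2:**
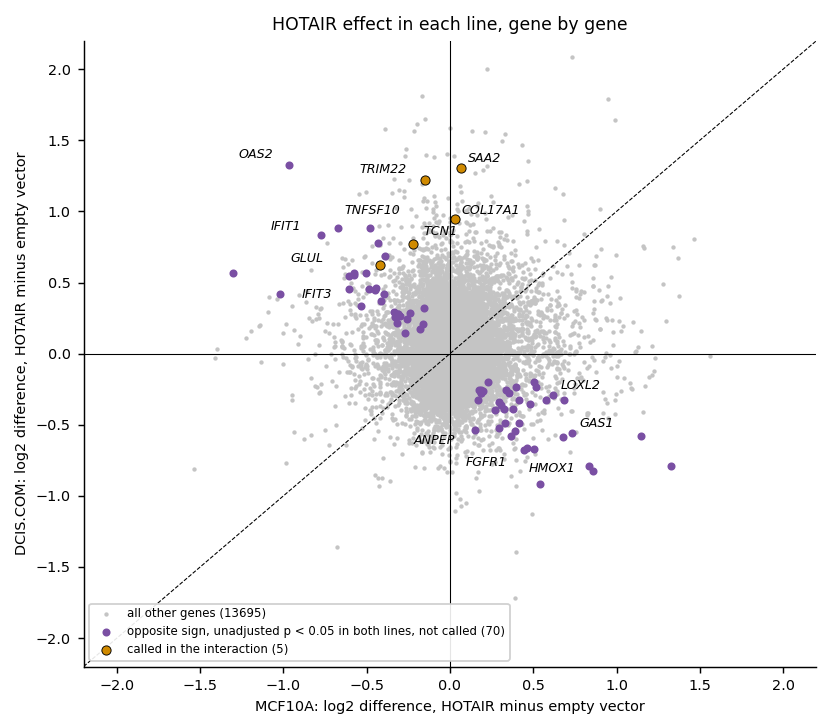
HOTAIR effect in MCF10A (horizontal axis) and in DCIS.COM (vertical axis), both as log2 differences between pCDH-HOTAIR and empty vector, for genes other than HOTAIR (grey). Called genes (orange, 5) lie above the dashed line of equal effects, and 70 further genes with opposite signs in the lines (purple) fill the upper left and lower right; 2 genes lie outside the axes.

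The 72 genes of opposite sign make up 0.523% of the table. In 34 the effect was positive in DCIS.COM and negative in MCF10A, and in 38 the reverse. At an unadjusted p under 0.05, MCF10A had 4.41% of all genes positive and 2.88% negative, and DCIS.COM 9.08% and 8.41%. Whether 72 differs from what these shares give when combined at random was not tested. The count itself is thus no evidence of opposed effects. In all 72 the libraries of each line separated by vector, which nearly follows from their choice by p in both lines and adds no support. Their absolute interactions ranged from 0.35 to 2.29 with a median of 0.83, and adjusted p ran from 0.0208 to 0.397. An unadjusted p under 0.05 in both lines was kept by 50 of them without DCIS.COM pCDH-empty replicate 1 and by 63 without replicate 2. Only GLUL and TCN1 among them were called over all genes, and the others below are given by their values.

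Positive in DCIS.COM and negative in MCF10A were TNFSF10, which encodes the death ligand TRAIL, and IFIT3, an interferon-induced partner of IFIT1. TNFSF10 read 3.91 and 3.99 log2 CPM in MCF10A with empty vector and 3.45 and 3.49 with HOTAIR. Its DCIS.COM levels were 2.90 and 3.21 with empty vector and 3.92 and 3.96 with HOTAIR. The order of the lines was thus turned around, and the interaction was 1.36 (0.98 to 1.75, adjusted p = 0.0624). CLDN1, a tight junction claudin, was at -0.33 in MCF10A and 0.29 in DCIS.COM.

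Positive in MCF10A and negative in DCIS.COM were ANPEP, an aminopeptidase of the cell surface; FGFR1, a receptor for fibroblast growth factors; GAS1, a membrane protein induced on growth arrest; VASN, a TGF-beta binding protein; and PEG10, an imprinted retrotransposon-derived gene. FGFR1 read 3.71 and 3.69 log2 CPM in MCF10A with empty vector and 4.19 and 4.14 with HOTAIR. In DCIS.COM the values were 4.57 and 4.42 with empty vector and 3.75 and 3.92 with HOTAIR. With empty vector FGFR1 was thus higher in DCIS.COM, and with HOTAIR it was higher in MCF10A. Its interaction was -1.12 (-1.44 to -0.81, adjusted p = 0.0624).

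ANPEP differed by 0.15 in MCF10A (0.02 to 0.28) and by -0.54 in DCIS.COM (-0.67 to -0.41), with an interaction of -0.69 (adjusted p = 0.0520). GAS1 differed by 0.73 and -0.56, VASN by 0.52 and -0.23 and PEG10 by 0.30 and -0.34, with adjusted interaction p of 0.114, 0.126 and 0.152. PPP1R3C, a glycogen-targeting subunit of protein phosphatase 1, differed by 1.15 in MCF10A, but its DCIS.COM libraries held 3 or fewer reads each, so no fold is given there. It is 1 of 2 genes among the 72 with so few reads in every library of a line.

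A list of 50 interferon-stimulated genes had 45 members in the table. The interaction was positive for 42 of 45, with a median of 0.50 against 0.01 over all genes. An unadjusted p under 0.05 was found for 27 of 45 with a higher effect in DCIS.COM and for 0 with a lower effect, against 5.21% and 5.34% of all genes. Only TRIM22 was called over all genes. With DCIS.COM pCDH-empty replicate 1 left out, the median was 0.51, and after GC correction it was 0.44 with 25 of 45 under 0.05.

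Both lines contributed, in opposite directions. In MCF10A the effect was negative for 44 of 45, with a median of -0.29. An unadjusted p under 0.05 was found for 24 with a negative effect and 1 with a positive effect, against 2.88% and 4.41% of all genes. In DCIS.COM the effect was positive for 34 of 45, with a median of 0.12 that was 0.05 after GC correction and 0.22 without DCIS.COM pCDH-empty replicate 2, and 17 were under 0.05 with a positive and 1 with a negative effect, against 9.08% and 8.41% of all genes. Opposite signs with an unadjusted p under 0.05 in both lines were found for 9 of the 45, against 0.523% of all genes. All 9 had the positive effect in DCIS.COM.

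OAS2, which makes the oligoadenylates that activate RNase L, had the largest interaction of the list. It read 2.72 and 2.30 log2 CPM in MCF10A with empty vector and 1.90 and 1.18 with HOTAIR. In DCIS.COM it read -0.26 and 0.01 with empty vector and 1.25 and 1.15 with HOTAIR, from 23 reads or more. With HOTAIR the lines thus nearly met. The interaction was 2.29 (1.44 to 3.14, adjusted p = 0.152).

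IFIT1, which binds viral RNA lacking cap methylation, read 4.84 and 4.24 in MCF10A with empty vector and 3.97 and 3.56 with HOTAIR. The DCIS.COM libraries read 0.31 and 0.57 with empty vector and 1.30 and 1.24 with HOTAIR. Its interaction was 1.61 (0.87 to 2.34, adjusted p = 0.222). IFIT3 differed by -0.50 in MCF10A and 0.57 in DCIS.COM, with an interaction of 1.07 (adjusted p = 0.145). IFIT1 and IFIT3 overlap LIPA on the opposite strand in the annotation, and LIPA itself, looked up after the values were seen, had an interaction of 0.35 (0.04 to 0.67).

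Other members differed by vector in 1 line more than in the other. SAMD9L, an antiviral restriction factor, differed by -0.16 (-0.42 to 0.10) in MCF10A and 0.73 (0.47 to 0.99) in DCIS.COM. ISG15, the ubiquitin-like modifier, differed by -0.70 (-1.14 to -0.25) in MCF10A and 0.05 (-0.40 to 0.49) in DCIS.COM. BST2, which tethers virions to the cell surface, differed by -0.79 (-1.17 to -0.41) and 0.28 (-0.10 to 0.66).

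Among the transcription factors of the pathway, IRF9 had an interaction of 0.59 (0.21 to 0.98) and STAT2 of 0.11 (-0.22 to 0.45). IRF7, which amplifies interferon production, had an interaction of 0.03 (-0.50 to 0.56). OAS2, IFIT1, SAMD9L, ISG15, BST2, IRF9, STAT2 and IRF7 were named after their values were seen.

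The promoters of this group show what its members share in sequence. The core of the interferon-stimulated response element was searched as GAAA, any 2 bases and GAAA, on both strands, in the 250 bases before each RefSeq start of a gene (GRCh38.p14). A gene counted as holding it where any of its listed starts did. Of the 45 members, 35 had a promoter in the table, and 23 of these (65.7%) held the core, against 3.34% of the 10492 tested genes with a promoter. Among members with an unadjusted interaction p under 0.05 it was 14 of 21, and among the other members 9 of 14. The element was therefore about as frequent in members that did not pass as in those that did. Printed here are the 3 members with the smallest interaction p that hold it: TNFSF10 (chr3:172523431-172523680, minus strand), IFIT3 (chr10:89327747-89327996, plus strand) and IFIT1 (chr10:89392373-89392622, plus strand). Capitals mark each match, which appears as TTTC, 2 bases and TTTC where it lies on the other strand. IFIT3 and IFIT1 hold 2 matches each and TNFSF10 holds 1.
TNFSF10 promoter: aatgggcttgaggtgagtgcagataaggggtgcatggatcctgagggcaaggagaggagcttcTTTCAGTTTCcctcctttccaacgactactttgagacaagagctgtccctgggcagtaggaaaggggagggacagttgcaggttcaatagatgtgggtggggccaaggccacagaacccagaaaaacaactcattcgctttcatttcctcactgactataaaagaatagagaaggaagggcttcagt
IFIT3 promoter: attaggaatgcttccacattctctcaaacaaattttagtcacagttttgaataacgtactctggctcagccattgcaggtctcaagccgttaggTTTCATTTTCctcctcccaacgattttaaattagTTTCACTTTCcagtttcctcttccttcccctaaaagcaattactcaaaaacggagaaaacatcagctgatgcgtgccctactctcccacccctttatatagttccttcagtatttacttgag
IFIT1 promoter: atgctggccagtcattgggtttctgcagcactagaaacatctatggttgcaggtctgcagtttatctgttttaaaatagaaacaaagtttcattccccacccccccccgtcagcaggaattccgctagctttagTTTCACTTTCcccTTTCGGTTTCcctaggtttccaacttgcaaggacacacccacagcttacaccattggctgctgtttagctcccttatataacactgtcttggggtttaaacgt

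Antigen presentation genes, which interferons also induce, differed in the same direction. Of 15 MHC class I genes, 8 had an unadjusted p under 0.05 with a higher effect in DCIS.COM and 0 with a lower effect. The shares over all genes were 5.21% and 5.34%. The median interaction of the 15 was 0.31. Without DCIS.COM pCDH-empty replicate 1 the median was 0.38, and after GC correction it was 0.36 with 8 higher at that threshold. HLA-B read 6.03 and 6.03 log2 CPM in MCF10A with empty vector and 5.94 and 5.82 with HOTAIR. Its DCIS.COM levels were 6.49 and 6.48 with empty vector and 6.81 and 6.80 with HOTAIR, and its interaction was 0.47 (0.27 to 0.68, adjusted p = 0.207). HLA genes are close copies that share reads. B2M, the common light chain, had an interaction of 0.51 (0.10 to 0.91), which was 0.29 without DCIS.COM pCDH-empty replicate 1, and was named after its values were seen.

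**Figure D3:**
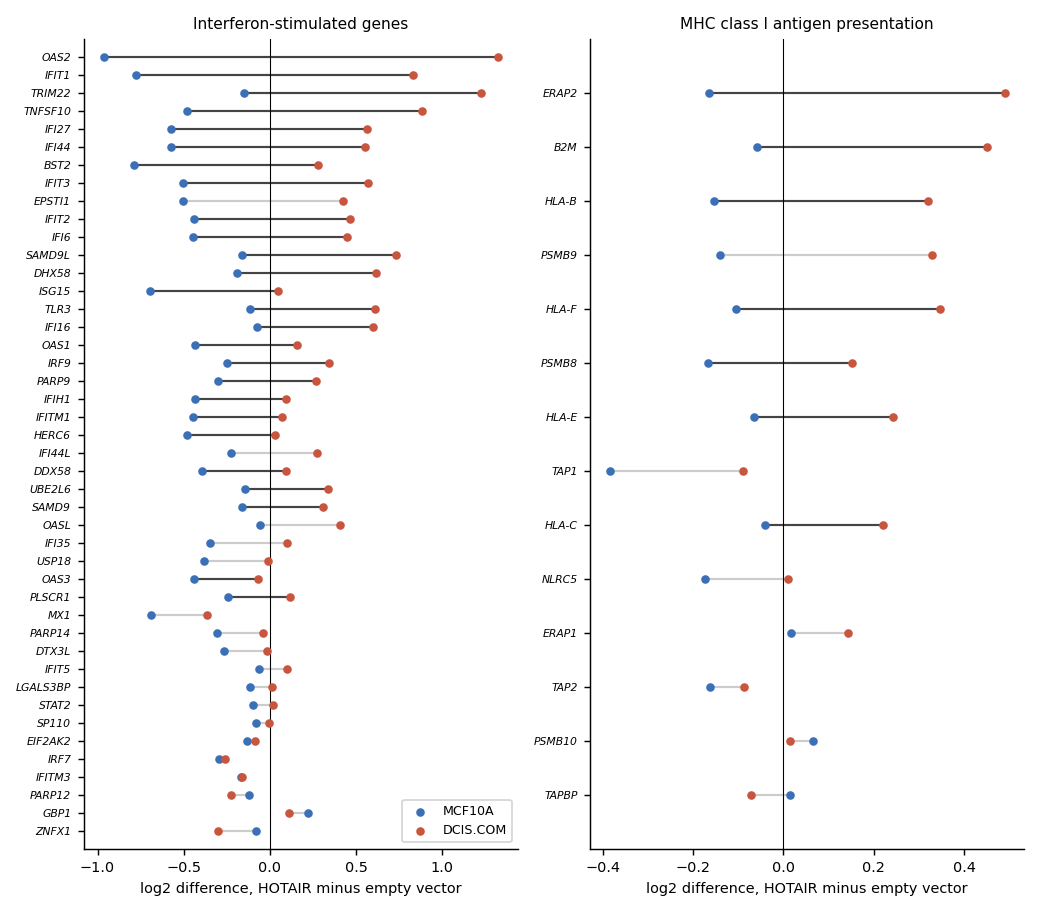
HOTAIR effect in MCF10A (blue) and DCIS.COM (red) for 44 of the 45 interferon-stimulated genes and 14 of the 15 MHC class I genes, as log2 differences between pCDH-HOTAIR and empty vector. Dark bars join the effects of genes with an unadjusted interaction p under 0.05 (26 and 7 genes shown); blue points lie left of 0 for 43 of the 44 interferon-stimulated genes shown.

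Mesenchymal and actomyosin genes differed the other way. Of 34 listed genes 31 were in the table. Of these, 15 had an unadjusted p under 0.05 with a lower effect in DCIS.COM and 0 with a higher effect. The shares over all genes were 5.34% and 5.21%. The median interaction of the list was -0.39. The median effect was 0.47 in MCF10A, where 16 had an unadjusted p under 0.05 with a positive effect and 0 with a negative effect. Over all genes these shares were 4.41% and 2.88%. In DCIS.COM the median was -0.12, with 7 positive and 7 negative at that threshold, against 9.08% and 8.41% of all genes. That median was -0.02 without DCIS.COM pCDH-empty replicate 1, -0.07 without replicate 2 and -0.08 after GC correction. None of the 31 was called over all genes by limma. With DCIS.COM pCDH-empty replicate 1 left out, the median interaction was -0.40, and after GC correction -0.42 with 15 under 0.05.

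CDH2, N-cadherin, read 3.87 and 4.16 log2 CPM in MCF10A with empty vector and 4.64 and 4.76 with HOTAIR. In DCIS.COM the values were 3.47 and 3.26 with empty vector and 2.97 and 3.11 with HOTAIR. The libraries separated by vector in both lines, in opposite order. The interaction was -1.01 (-1.43 to -0.58, adjusted p = 0.189).

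LOXL2, a collagen crosslinking oxidase that overlaps ENTPD4, differed by 0.62 (0.39 to 0.85) in MCF10A and by -0.29 (-0.52 to -0.06) in DCIS.COM, and its interaction was -0.91 (adjusted p = 0.152). VIM, vimentin, differed by 0.72 (0.45 to 0.99) in MCF10A and 0.13 (-0.14 to 0.40) in DCIS.COM. Its DCIS.COM groups overlapped, with empty vector libraries at 8.45 and 8.06 and HOTAIR libraries at 8.36 and 8.40. AXL, a receptor kinase, differed by 1.09 (0.60 to 1.57) and -0.24 (-0.72 to 0.25). Without DCIS.COM pCDH-empty replicate 1 the interaction of VIM was -0.40 in place of -0.59 and that of AXL -1.01 in place of -1.32. VIM was named after its values were seen.

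Not all members followed this order. SNAI2 and TGFBI had effects of 0.32 and 0.46 in MCF10A and 0.38 and 0.46 in DCIS.COM. MMP2, a gelatinase, was at 0.32 in MCF10A and 0.68 in DCIS.COM. These 3 were named after their values were seen, and none had an unadjusted interaction p under 0.05.

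Of 16 YAP and TEAD targets, 5 were under 0.05 with a lower effect in DCIS.COM and 1 with a higher effect. The shares over all genes were 5.34% and 5.21%. The smallest p was that of CCN1, a matricellular protein, at 0.39 in MCF10A and -0.55 in DCIS.COM. The YAP and TEAD list also holds AXL, described above with the mesenchymal genes, so these groups are not fully separate. Of 23 ERK feedback and target genes, 7 were lower and 2 higher, against the same shares. The smallest p-values were those of SPRY4 and FOSL1, at interactions of -0.73 and -0.96. For the YAP and TEAD list these counts were 5 and 1 without DCIS.COM pCDH-empty replicate 1 and 8 and 1 after GC correction. For the ERK list they were 8 and 3, and 8 and 2. MYC, an ERK-responsive gene picked after its values were seen, had an interaction of -0.50, which was -0.33 without DCIS.COM pCDH-empty replicate 1.

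The targets of NRF2 differed mainly through DCIS.COM. All 19 had a negative effect there, 14 with an unadjusted p under 0.05, against 8.41% of all genes. In MCF10A the median effect was 0.07, with 2 positive and 0 negative at that threshold, against 4.41% and 2.88% of all genes. The interaction was negative for 18 of 19 with a median of -0.33. Of the 19, 12 were under 0.05 with a lower effect in DCIS.COM and 0 with a higher effect. The shares over all genes were 5.34% and 5.21%. By limma 0 of the 19 were called over all genes. With DCIS.COM pCDH-empty replicate 1 left out, the median was -0.34, and after GC correction -0.42 with 15 under 0.05.

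NQO1, a quinone reductase, read 7.03 and 7.04 log2 CPM in MCF10A with empty vector and 7.13 and 7.13 with HOTAIR. In DCIS.COM it read 9.18 and 9.22 with empty vector and 8.83 and 8.83 with HOTAIR. The replicates of a group lay within 0.1 of each other. The interaction was -0.47 (-0.64 to -0.29, adjusted p = 0.152), with a range of -0.48 to -0.45 when single libraries were left out.

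TXNRD1, thioredoxin reductase, differed by 0.13 (-0.02 to 0.29) in MCF10A and by -0.41 (-0.56 to -0.25) in DCIS.COM. AKR1C1, an aldo-keto reductase with close copies, differed by 0.33 (0.09 to 0.57) and -0.49 (-0.73 to -0.25). HMOX1, heme oxygenase, read 2.70 and 2.84 in MCF10A with empty vector and 3.08 and 3.35 with HOTAIR, against 2.33 and 1.90 and then 1.44 and 1.43 in DCIS.COM. AKR1C1 and HMOX1 were named after their values were seen.

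The ferritin chains, which store iron and are not in this list, had the same order of signs. FTL differed by 0.29 (0.08 to 0.50) in MCF10A and by -0.52 (-0.73 to -0.31) in DCIS.COM, with an interaction of -0.82 (adjusted p = 0.152). FTH1 differed by 0.35 and -0.28. The glutamate-cysteine ligase subunits GCLC and GCLM, which make glutathione precursor, did not show it, with interactions of -0.03 and -0.02. These 4 were named after their values were seen.

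The core of the antioxidant response element, searched as TGAC, any 3 bases and GC on either strand, was held by 4 of the 14 NRF2 targets with a promoter (28.6%), against 15.8% of tested genes with a promoter. Of the targets with an unadjusted interaction p under 0.05, 1 of 8 held it in this window (12.5%), and of the other targets 3 of 6. The element was thus not more frequent in the targets that passed. The 1 that passed and held it was TXNRD1 (chr12:104215529-104215778, plus strand, GRCh38.p14), shown with the match in capitals.
TXNRD1 promoter: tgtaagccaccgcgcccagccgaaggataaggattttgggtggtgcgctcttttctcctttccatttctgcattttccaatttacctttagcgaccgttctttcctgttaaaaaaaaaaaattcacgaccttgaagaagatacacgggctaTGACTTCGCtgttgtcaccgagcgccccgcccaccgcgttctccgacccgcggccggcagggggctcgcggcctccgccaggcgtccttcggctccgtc

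Sterol and fatty acid synthesis genes differed mainly through MCF10A. Of 28 genes in the table, 13 had an unadjusted p under 0.05 with a higher effect in DCIS.COM and 0 with a lower effect, against 5.21% and 5.34% of all genes. In MCF10A 13 were under 0.05 with a negative effect and 0 with a positive effect, against 2.88% and 4.41%, and the median effect was -0.22. In DCIS.COM the median was 0.02, with 2 positive and 6 negative at that threshold, against 9.08% and 8.41%. Not a single gene of this list was called over all genes by limma. Without DCIS.COM pCDH-empty replicate 1 the median interaction was 0.20 in place of 0.23, and after GC correction it was 0.16 with 11 under 0.05.

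SCD, which desaturates fatty acids, read 9.61 and 9.60 log2 CPM in MCF10A with empty vector and 9.18 and 9.02 with HOTAIR. The DCIS.COM libraries read 11.05 and 11.06 with empty vector and 10.98 and 10.99 with HOTAIR. The difference was -0.50 (-0.68 to -0.33) in MCF10A and -0.07 (-0.24 to 0.10) in DCIS.COM, and the interaction was 0.44 (adjusted p = 0.307). INSIG1, the sterol sensor that holds back SREBP processing, differed by -0.34 (-0.53 to -0.15) and 0.15 (-0.04 to 0.34). The fatty acid synthase FASN, named after its values were seen, differed by -0.24 in MCF10A and -0.34 in DCIS.COM. IDI1 and MSMO1, named after their values were seen and with interactions of 0.97 and 0.78, rest on DCIS.COM empty vector libraries that were far apart, at 5.80 and 6.91 and at 6.16 and 6.86.

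**Figure D4:**
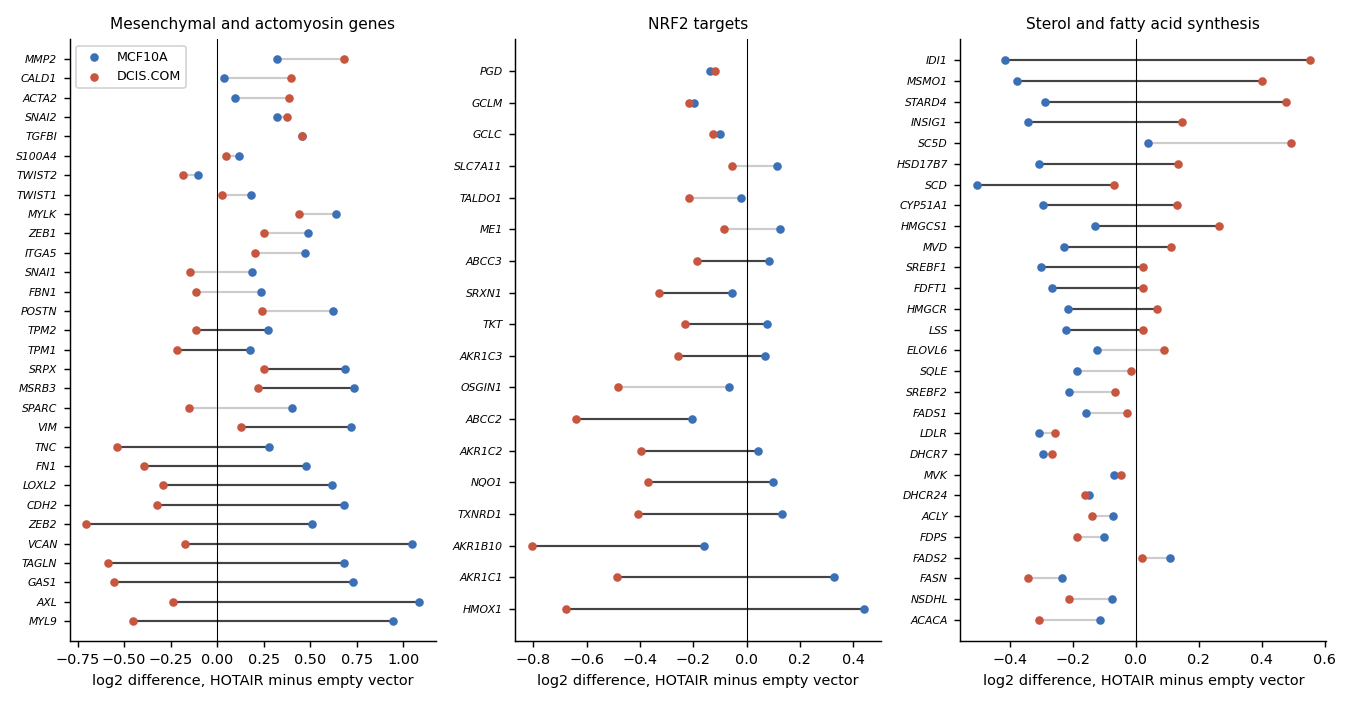
HOTAIR effect in MCF10A (blue) and DCIS.COM (red) for 30 of 31 mesenchymal and actomyosin genes, 18 of 19 NRF2 targets and 28 sterol and fatty acid synthesis genes, as log2 differences between pCDH-HOTAIR and empty vector. Dark bars mark an unadjusted interaction p under 0.05 (15, 11 and 13 genes shown); NRF2 targets lie left of 0 in DCIS.COM, and most sterol genes lie left of 0 in MCF10A.

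Acute-phase and complement genes differed mainly through DCIS.COM. All 16 in the table had a positive effect there, 9 with an unadjusted p under 0.05, against 9.08% of all genes. The median interaction was 0.36, and 8 had an unadjusted p under 0.05 with a higher effect in DCIS.COM and 1 with a lower effect, against 5.21% and 5.34% of all genes. With DCIS.COM pCDH-empty replicate 1 left out, these counts were again 8 and 1, with a median of 0.33, and after GC correction 8 and 1 with a median of 0.42. Beside SAA2, PROS1, the anticoagulant protein S, read 5.66 and 5.63 log2 CPM in MCF10A with empty vector and 5.64 and 5.63 with HOTAIR, and 0.95 and 1.34 and then 2.21 and 2.28 in DCIS.COM. Its interaction was 1.11 (0.68 to 1.53, adjusted p = 0.152). CLU, the extracellular chaperone clusterin, differed mainly through MCF10A, by -1.09 (-1.42 to -0.76) against 0.30 (-0.03 to 0.63). SERPINA1, alpha-1 antitrypsin, was the member with a lower effect, at 0.61 in MCF10A and 0.02 in DCIS.COM, and was named after its values were seen.

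Of 29 HIF targets outside glycolysis, 16 had an unadjusted p under 0.05 with a positive effect in MCF10A and 18 in DCIS.COM. The shares over all genes were 4.41% and 9.08%. The median interaction was -0.00303. Here 6 were under 0.05 with a lower effect in DCIS.COM and 0 with a higher effect, against 5.34% and 5.21% of all genes. These values depended on the DCIS.COM empty vector library used: the median was -0.10 with 2 higher and 10 lower without replicate 1, and 0.00100 with 10 higher and 8 lower without replicate 2. After GC correction it was -0.15 with 0 higher and 7 lower. CA9, a carbonic anhydrase, read 5.02 and 5.11 log2 CPM in MCF10A with empty vector and 6.06 and 6.002 with HOTAIR, and 5.32 and 5.27 and then 5.54 and 5.52 in DCIS.COM. Both effects were thus positive, at 0.97 and 0.24, with an interaction of -0.73 (-0.96 to -0.51, adjusted p = 0.0857). ANGPTL4, a lipoprotein lipase inhibitor, differed by 0.71 in MCF10A and -0.07 in DCIS.COM. Of 21 glycolysis genes, 5 were under 0.05 with a lower effect in DCIS.COM and 0 with a higher effect, against the same shares. The smallest p was that of PFKFB3, which makes the activator of phosphofructokinase, at 0.62 in MCF10A and 0.03 in DCIS.COM. All 21 had a positive effect in MCF10A (median 0.16), against 10 positive and 11 negative in DCIS.COM (median -0.00983). Their median interaction was -0.20, and it was -0.12 with 7 lower without DCIS.COM pCDH-empty replicate 1 and -0.15 with 4 lower after GC correction. Without replicate 2 there were 15 lower and 1 higher.

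Of 28 epidermal differentiation genes, 8 were under 0.05 with a higher effect in DCIS.COM and 2 with a lower effect, against 5.21% and 5.34% of all genes. Both counts were the same without DCIS.COM pCDH-empty replicate 1, and were 9 and 1 after GC correction. CLCA2, a p53-inducible epithelial protein, differed by 0.41 (0.21 to 0.62) in MCF10A and by 1.19 (0.99 to 1.40) in DCIS.COM, with an interaction of 0.78 (adjusted p = 0.152). SLPI and PI3, secreted protease inhibitors, differed by -0.01 and 0.02 in MCF10A and by 0.54 and 0.68 in DCIS.COM. Of 23 collagen chains, 5 were under 0.05 with a higher effect in DCIS.COM and 0 with a lower effect. The shares over all genes were 5.21% and 5.34%. Among the 5 were COL17A1 and COL4A4, a basement membrane chain with an interaction of 0.73. The median interaction of the collagens was 0.28 with all libraries, 0.04 without DCIS.COM pCDH-empty replicate 1, 0.51 without replicate 2 and 0.31 after GC correction. The 13 hemidesmosome and laminin genes, a list that also holds COL17A1, went the other way, with a median interaction of -0.18. Of these, 4 interactions were positive and 9 negative. At an unadjusted p under 0.05, COL17A1 alone was higher and 2 genes were lower, against 5.21% and 5.34% of all genes. Their median was -0.10 without DCIS.COM pCDH-empty replicate 1 and -0.12 after GC correction.

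Keratins split. KRT81, a hair keratin, read 11.39 and 11.45 log2 CPM in MCF10A with empty vector and 11.72 and 11.84 with HOTAIR, and 9.03 and 8.69 and then 8.25 and 8.32 in DCIS.COM. Its interaction was -0.94 (-1.31 to -0.58, adjusted p = 0.152). KRT81 overlaps KRT86 on the opposite strand. KRT14, a basal keratin, had an interaction of -0.75, and KRT15 of 0.41. KRT14 read 5.94 and 5.37 in the DCIS.COM empty vector libraries, and its interaction was -0.46 without replicate 1. Of 24 keratins, 3 were under 0.05 with a higher and 6 with a lower effect in DCIS.COM, against 4 and 4 without replicate 1 and 6 and 6 after GC correction. With all libraries, 5.21% of all genes were higher and 5.34% lower at that threshold. KRT15 was named after its values were seen.

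Among small RNAs, the 8 U1 small nuclear RNA genes, which serve in splicing and are near-identical copies that share reads, were taken as a family. Their summed level read 10.32 and 10.28 log2 CPM in MCF10A with empty vector and 10.37 and 9.99 with HOTAIR. Its DCIS.COM levels were 10.89 and 10.50 with empty vector and 11.74 and 11.39 with HOTAIR. The median interaction of the copies was 0.99, against 1.18 without replicate 1 of the DCIS.COM empty vector and 1.05 after GC correction. For the 5 SNORD3 genes, which encode the U3 small nucleolar RNA of ribosomal RNA processing, the summed level read 11.28 and 11.13 and then 10.45 and 9.91 in MCF10A, and 11.67 and 11.78 and then 11.58 and 12.07 in DCIS.COM. The MCF10A libraries separated by vector, and the DCIS.COM libraries overlapped. The median interaction of the 5 genes was 0.66, against 0.68 and 0.72 in the same alternatives.

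No member had an unadjusted interaction p under 0.05 among 15 PRC2 and LSD1 complex genes, 18 HOX genes and 11 unfolded protein response genes, and limma called 0 of these genes over all genes. Of 34 cell cycle and replication genes, 2 were under 0.05 with a higher effect in DCIS.COM and 0 with a lower effect. Of 79 cytoplasmic ribosomal protein genes it was 1 and 0. The counts for these lists stand against 5.21% and 5.34% of all genes. Among the 18 HOX genes and the 15 PRC2 and LSD1 complex genes there were again 0 higher and 0 lower without DCIS.COM pCDH-empty replicate 1, and 0 higher with 0 and 1 lower after GC correction. Without replicate 2 there were 2 higher and 2 lower HOX genes, 6 higher and 2 lower PRC2 and LSD1 complex genes, and 10 higher and 43 lower ribosomal protein genes.

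The 63 replication-dependent histone genes depended on the library used. With all libraries 0 were under 0.05 with a higher and 1 with a lower effect in DCIS.COM, against 5.21% and 5.34% of all genes. Yet 57 had a negative interaction, and the median was -0.20. Within DCIS.COM 28 were under 0.05 with a negative effect, against 8.41% of all genes, with a median of -0.38. Without replicate 1 of the DCIS.COM empty vector the median interaction was 0.09 with 5 higher and 1 lower, and without replicate 2 it was -0.49 with 0 higher and 56 lower. After GC correction it was -0.15, with 0 higher and 1 lower.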

How the data were processed

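RNA was taken from subconfluent plates, with integrity values over 8.0, and sequenced as paired-end ScriptSeq v2 libraries. Per the study's methods and the submitters' processing notes, reads were mapped to hg19 with Rsubread, counted per gene with featureCounts against UCSC known genes and scaled with edgeR. The authors deposited normalized log2 CPM values for 13771 genes, 343 of them without a symbol. Whether counting used strand is not given in the sources used here. In every library each value was a constant of 0.0717 CPM plus a whole number of reads (100% of values, tolerance 0.1 read), so read counts were recovered, and 3 reads was taken as the floor. Low counts limit precision, and intervals cover the spread between libraries only.

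Tests used a linear model of the 4 groups (limma 3.58.1, run under R 4.3.3), moderated with a mean-variance trend, with Benjamini-Hochberg adjustment over all 13771 genes and no fold threshold. All p-values and intervals come from this fit, whose spread per gene is shared by the 4 groups. It was tested on simulated data with equal spread in all groups and no difference that follows GC content. That simulation therefore does not cover the wider DCIS.COM pCDH-empty pair. Samples were grouped by their titles. No column of per-sample values was left unused (0). Gene lists are described by counts and medians without a test.

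The genes named were HOTAIR, TRIM22, COL17A1 and GLUL, the called genes (up to 15 with the smallest p and 5 with the largest difference in each direction), the 10 genes of opposite sign with the smallest p, and in each list the called members and the 3 with the smallest p. Other names are marked as chosen after their values were seen. The comparison, its lists and its members were chosen with earlier results of these data known.

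The alternatives were pseudocounts of 0.1 and 1 CPM, median centring, quantile normalization, a mean of at least 2 CPM, no trend, robust moderation, array weights, the replicate number as a block, limma-voom on the recovered reads, thinning to the smallest library, corrections for GC content and length, and leaving out each library. Counts of opposite-sign genes and of list members at unadjusted p, with their alternatives, were added after seeing the data. Gene positions are from GENCODE 44 in GRCh37, and promoter sequences from RefSeq in GRCh38.p14, matched by symbol for 10492 genes.
A few genes are not reported here by name; they remain in the counts and medians of their lists.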

Additional observations from a re-analysis of the deposited data

Results flagged for a closer look

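The HOTAIR effect differed between the lines, by the limma test of the difference itself (adjusted p under 0.05), for 6 genes. The interaction, as DCIS.COM effect minus MCF10A effect on the log2 scale, was 1.37 for TRIM22, 1.04 for GLUL, 0.997 for TCN1, 0.92 for COL17A1, 1.24 for SAA2 and -1.87 for HOTAIR itself. With 2 libraries in each group, single libraries were not tested for standing apart from their group.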

How the results depend on the processing

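With all 8 libraries limma called 6 genes (5 higher and 1 lower in DCIS.COM, 2 of opposite sign, 3 with 1 line under 0.05). It called 10 with a pseudocount of 1 CPM (5 lower, 5 of opposite sign) and 20 after GC correction (9 higher, 11 lower, 11 of opposite sign, 7 with 1 line). Thinning to the smallest library gave 3 (3 higher, 0 lower, 1 of opposite sign), and limma-voom on recovered reads gave 5 (0 lower, 4 of opposite sign, 1 with 1 line). Array weights gave 9 (3 lower, 6 of opposite sign), robust moderation 2 lower and 4 of opposite sign, a mean of at least 2 CPM 2 lower, and length correction 3 lower. At an adjusted p under 0.1 there were 12. Without the mean-variance trend limma called 0 in every class, with 1414 genes at an unadjusted p under 0.05. With the replicate block it also called 0 in every class, with 1342 at an unadjusted p under 0.05, but the numbers do not pair the samples (correlations of deviations from -0.016 to 0.066). Beyond these last settings, TRIM22 was lost after GC correction, TCN1 after thinning, HOTAIR after thinning and with limma-voom, and SAA2 in both of those and with a pseudocount of 1 CPM. The causes were not tested.

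Leaving out 1 library at a time, the calls ranged from 0 to 4414, those higher from 0 to 2516, lower from 0 to 1898, of opposite sign from 0 to 817 and with 1 line from 0 to 3438. Genes of opposite sign at unadjusted p ranged from 31 to 817, against 72. The highest counts came without DCIS.COM pCDH-empty replicate 2, and 89 calls came without replicate 1. No interaction of a called gene was reversed. Over 132 named genes, 2761 of 2769 values kept their sign, as did 315 of 315 medians of the 15 lists beyond 0.2. Many of these genes were named for the smallest interaction p of their list in the same libraries. The lists were likewise picked by the size of their median, so kept signs add no separate support. The replication-dependent histones, at a median of -0.1997, fell just short of that limit. Their median was 0.085 without DCIS.COM pCDH-empty replicate 1. With 2 libraries per group, effects under the spread of the DCIS.COM pCDH-empty pair cannot be resolved.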
